A study of Homo sapiens with 12 samples.

Results

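Oligosaccharyltransferase is the enzyme of the endoplasmic reticulum that attaches sugar chains to proteins, and the results below describe the transcripts of 10 of its genes: OSTC, STT3A, STT3B, RPN1, RPN2, DDOST, DAD1, OST4, TUSC3 and MAGT1. They were taken by gene symbol from a table of 20979 entries, and all 10 passed the filter on low values that 12276 genes passed. The set was chosen because OSTC had fallen with one PTPN14 siRNA in these libraries, to ask whether its partners fell with it. OSTC's own values with that siRNA, called PTPN14-1, are therefore given as a description with no test.

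PolyA RNA was sequenced from 3 established human kidney cell lines: CAKI-1 and A704, both labelled as cancer, and HK2, labelled as normal. Each line was transfected with PTPN14-1 or PTPN14-2, which are independent siRNAs against PTPN14 (a tyrosine phosphatase linked to Hippo signalling), with the LATS siRNA, or with a non-targeting siRNA as control. All were used at 25 nM with a lipid reagent for 48 h, with 1 library per line and siRNA and so 12 libraries. By its title the study is about the Hippo pathway in a rare kidney carcinoma. The labels name no other agent or allele, and say nothing of how the lines were established. The RNA integrity number was 10 in 11 libraries and 9.6 in the A704 control. Titles and descriptions number the PTPN14 siRNAs in opposite order, and the title numbers are used. The labels do not name the LATS gene that the LATS siRNA was aimed at. Nor do they state that cultures were separate. The p-values rest on a spread pooled over all siRNAs. That spread holds how far siRNA differences disagree between the 3 lines, and noise of these libraries that may be technical.

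N-linked glycosylation starts when oligosaccharyltransferase moves a preassembled sugar chain from a lipid, dolichol, to an asparagine of a protein entering the endoplasmic reticulum. Mammalian cells build alternative forms of the enzyme around either of the catalytic subunits STT3A and STT3B, with RPN1, RPN2, DDOST, DAD1, OST4 and TMEM258 in both. OSTC (also called DC2) and KRTCAP2 belong to the STT3A form, which docks at the translocation channel and works while the protein is being made, and the oxidoreductases TUSC3 and MAGT1 belong to the STT3B form, which modifies sites that the first has passed over. TMEM258 and KRTCAP2 were followed beside the 10 genes.

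The siRNA targets were checked first. PTPN14 stood at 21.4, 28.7 and 25.2% of its line's control with PTPN14-1 in A704, HK2 and CAKI-1, and at 37.3, 37.5 and 31.2% with PTPN14-2. With the LATS siRNA, LATS1 stood at 30.7, 27.9 and 22.5% and LATS2 at 110, 98.2 and 122%. All lines expressed KRT8, KRT18 and PAX8, epithelial and renal markers, at FPKM 19.4 or more. EPCAM was above FPKM 1 in HK2 alone and CDH1 in A704 alone. KRT19, also epithelial, was at 52.6 to 62.7 in A704 and 165 to 184 in HK2, but at 1.06 to 1.7 in CAKI-1. PAX2, a renal marker, was at 9.81 to 14.3 in A704, 0 in HK2 and 0 to 0.01 in CAKI-1. VIM, a mesenchymal gene, was at 318 to 1590. CD3E was at 0 in all libraries, but CD68, also on the leukocyte list, was at 17.7 to 198. Of the fibroblast list COL1A2 did not exceed 0.01, while DCN was at 5.67 to 8.2 in HK2, COL1A1 reached 1.49 and PDGFRB 1.72. The endothelial genes PECAM1, CDH5 and VWF did not exceed 0.35. The depth estimated from whole-read steps in the low values was 17 to 23.3 M reads per library. Each estimate rested on 24 to 40 single-exon genes, of which 68.6 to 91.2% fell on the step chosen. Only a set range of steps was searched, so these depths are approximate.

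OSTC lies on the plus strand of chromosome 4 (chr4:108650584-108667820, GRCh38). GENCODE 29 lists 6 processed pseudogenes of it, intronless copies that are 92.5 to 95.1% identical to the aligned part of its 516 coding bases. None of the 6 is an entry of the table. The first 60 coding bases of OSTC are printed with the same stretch of the 3 copies that align there without a gap, because reads from such copies can be counted for the parent gene; capitals mark the bases in which a copy differs from OSTC.
OSTC: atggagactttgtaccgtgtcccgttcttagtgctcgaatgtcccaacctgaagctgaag
OSTCP4: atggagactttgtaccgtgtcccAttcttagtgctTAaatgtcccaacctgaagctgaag
OSTCP5: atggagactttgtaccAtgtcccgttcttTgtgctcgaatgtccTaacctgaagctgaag
OSTCP2: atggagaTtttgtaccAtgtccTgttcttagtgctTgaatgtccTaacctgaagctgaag
OSTCP4 (chr4:112685055-112685503) and OSTCP5 (chr1:45069977-45070429, minus strand) differ from OSTC at 3 of the 60 bases and OSTCP2 (chr1:26985897-26986340, minus strand) at 5. Of the 614 stretches of 50 bases in the OSTC transcript, 49 (7.98%) occur unchanged in a transcript of another gene. These lie in AC011487.3 (25), OSTCP6 (18) and OSTCP1 (6), a copy annotated as transcribed, and not in the 3 copies printed above. How reads from these stretches were assigned is not given in the sources used here, and their part in the OSTC values was not tested. Of the partners, 7 shared no 50-base stretch with another gene, MAGT1 shared 0.579% of its stretches and DDOST 18.1%, all of those 368 with the overlapping PINK1-AS.

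OSTC was lower with PTPN14-1 than with any other siRNA in all 3 lines. In A704 it stood at FPKM 72.9 with the control siRNA, 29.5 with PTPN14-1, 62.3 with PTPN14-2 and 66 with the LATS siRNA. In HK2 the same 4 values were 79.1, 30.1, 59.3 and 79.5. In CAKI-1 they were 173, 65.5, 139 and 159. The PTPN14-1 library is the lowest of each line, at 40.4, 38.1 and 37.8% of control in the same order of lines, and the PTPN14-2 library is the next lowest in each. Because CAKI-1 held more OSTC than the other lines, its PTPN14-1 value overlapped the range of the other libraries, 59.3 to 173, although it was the lowest of its own line. These are bulk RNA values, in which fewer cells with OSTC transcript and less transcript per cell cannot be told apart.

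**Figure D1:**
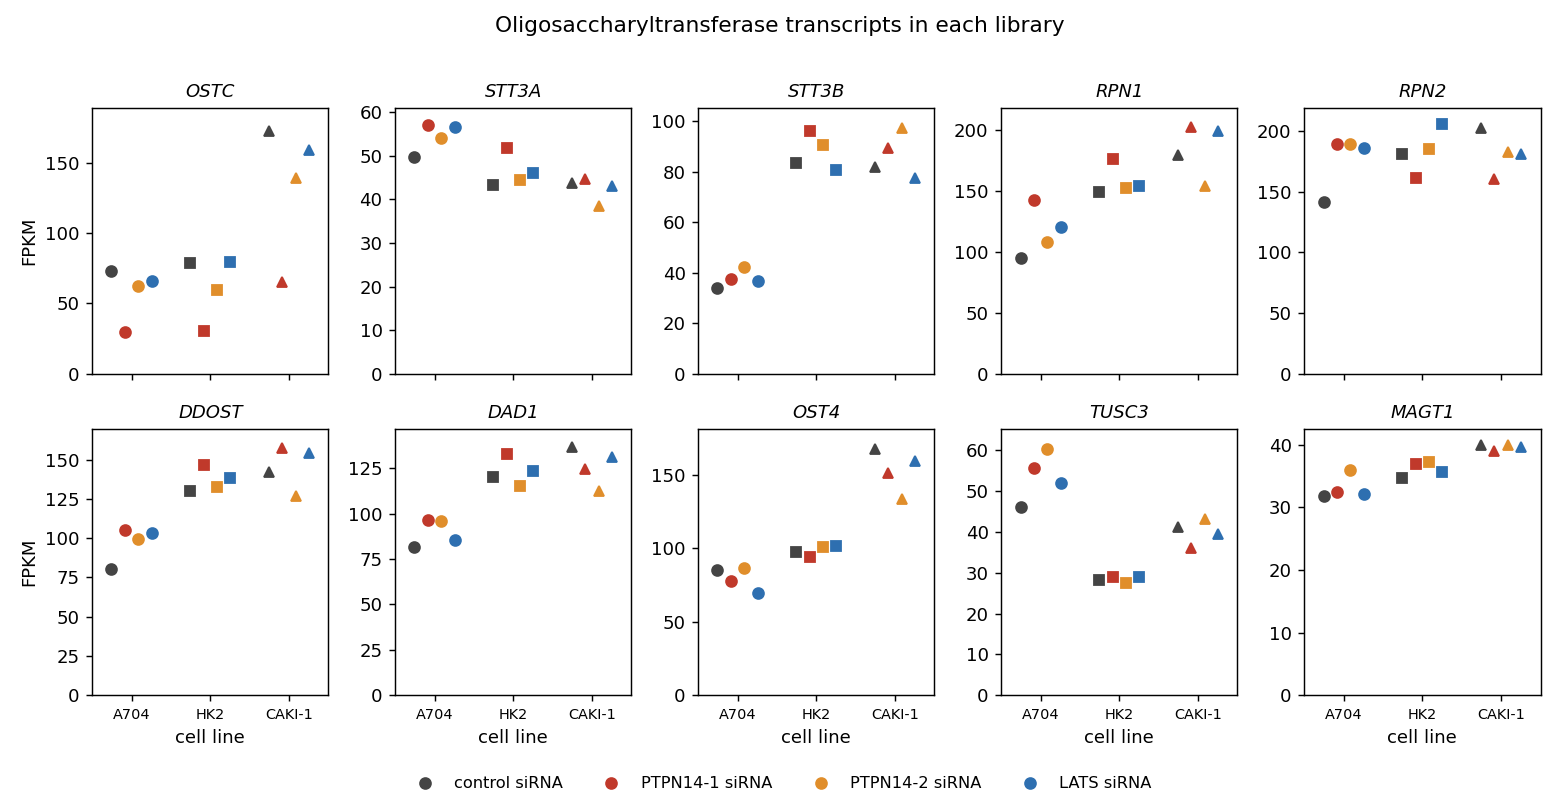
FPKM (vertical axes, from 0, with a scale of its own in each panel) of the 10 genes in each of the 12 libraries, by cell line (horizontal axes, marker shape) and siRNA (colour); each point is 1 library. OSTC with PTPN14-1 lies at 29.5, 30.1 and 65.5, below the other 3 libraries of its line. The other 9 genes show no fall of that size, but some of their PTPN14-1 points lie outside the other libraries of the line. Examples are RPN1 in A704 (142 against 95, 108 and 120) and RPN2 in HK2 (161 against 181, 185 and 205).

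On the log2(FPKM + 1) scale used for all differences below, OSTC with PTPN14-1 was below control by -1.34, and by -1.37 to -1.33 with each library left out in turn. Against PTPN14-2 it was lower by -1.03. The difference of PTPN14-2 from control was not used to choose the gene. Its libraries were, since OSTC was chosen on PTPN14-1 against PTPN14-2 as well as against the 3 control libraries. The test of that difference is therefore not on separate data. With PTPN14-2 the OSTC difference from control was -0.31 (SE 0.08, 95% interval -0.48 to -0.15, n = 3 against 3), lower in 3 of 3 lines at 85.5, 75 and 80.4% of control. That did not pass Benjamini-Hochberg adjustment over all genes in limma (adjusted p = 0.0669, and 0.0540 to 0.260 with each library left out), though it did with quantile normalisation (adjusted p = 0.0471). With the LATS siRNA the OSTC difference was -0.09 (SE 0.08, interval -0.25 to 0.08, adjusted p = 0.687).

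The partners did not show a fall of that size with PTPN14-1. Limma called 0 of the 9 partners against control at an adjusted p under 0.05, a threshold that 5.87% of all genes tested passed. At an unadjusted p under 0.05 it had 2 of the 9, RPN1 and DDOST, and 22.8% of all genes. The differences of the 9 partners ran from -0.11 to 0.33 with a median of 0.08, against a median of 0.00 over all genes tested. Among them 7 were above 0 and 2 below, where 50.5% of all genes lay above 0. The lowest lower bound of the 9 intervals was -0.32, for OST4, whereas OSTC stood at -1.34.

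STT3A (chr11:125591712-125625215), the catalytic subunit of the form that holds OSTC, was not lower with PTPN14-1. Its FPKM in A704 was 49.6 with the control siRNA, 57.2 with PTPN14-1, 54 with PTPN14-2 and 56.7 with the LATS siRNA. In HK2 the same values were 43.4, 51.7, 44.6 and 46.1, and in CAKI-1 43.9, 44.7, 38.5 and 43. The PTPN14-1 library was the highest of each line for STT3A, where it was the lowest for OSTC. Of all genes tested, 30.4, 32 and 24.8% were highest in that library in A704, HK2 and CAKI-1, and 29.9, 31.8 and 24.3% were lowest. How many genes were so in all 3 lines was not counted. The same shares apply to RPN1 and DDOST below. The STT3A difference from control was 0.16 (SE 0.08, interval -0.00 to 0.32, n = 3 against 3), which did not pass (limma adjusted p = 0.235). KRTCAP2, the other small subunit of this form, differed by 0.03 (interval -0.18 to 0.25, adjusted p = 0.881), with 76.5, 69.6 and 127 with PTPN14-1 beside 70, 66.2 and 136 in the controls of A704, HK2 and CAKI-1. Of its 50-base stretches 68% are shared with AL713999.1, a gene annotated over it on the same strand, so its level is uncertain.

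STT3B (chr3:31532638-31637622), the other catalytic subunit, had FPKM values of 33.9, 37.4, 42.4 and 36.9 in A704 with control siRNA, PTPN14-1, PTPN14-2 and LATS siRNA. In HK2 they were 83.4, 96, 90.5 and 80.6, and in CAKI-1 82, 89.3, 97.1 and 77.5. With both PTPN14 siRNAs STT3B was above control in each line, by 0.15 with PTPN14-1 (SE 0.08, limma adjusted p = 0.252) and 0.22 with PTPN14-2 (SE 0.08, adjusted p = 0.181), and neither difference passed. TUSC3 and MAGT1, the thiol oxidoreductases that serve STT3B, differed with PTPN14-1 by 0.04 (interval -0.16 to 0.24) and 0.02 (interval -0.12 to 0.17). TUSC3 with PTPN14-1 was above control in A704 and HK2, at 121 and 103% of it, and below it in CAKI-1, at 87.4%. MAGT1 had the smallest spread of the 10 genes, from 31.9 to 40 over the 12 libraries.

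RPN1 (ribophorin I, chr3:128619970-128681075, minus strand), which hands certain membrane proteins to the catalytic subunit, had the largest difference of the partners, above control. In A704 its FPKM was 95 with the control siRNA, 142 with PTPN14-1, 108 with PTPN14-2 and 120 with the LATS siRNA. In HK2 the values were 149, 176, 152 and 154, and in CAKI-1 179, 202, 153 and 199. The PTPN14-1 library was again the highest of each line, at 150, 118 and 113% of control, although in CAKI-1 it stood close to the LATS library. The difference from control was 0.33 (SE 0.09, interval 0.13 to 0.53), with a limma adjusted p of 0.0537 that did not pass, nor did it in any of the 12 fits without 1 library (adjusted p = 0.0526 to 0.234). Without the A704 control library, the one with the RNA integrity number of 9.6, the RPN1 difference was 0.23 (adjusted p = 0.234).

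DDOST (chr1:20651767-20661544, minus strand), a subunit with a single membrane span, showed the same order at smaller size. Its FPKM in the control and PTPN14-1 libraries was 80.1 and 105 in A704, 130 and 146 in HK2, and 142 and 157 in CAKI-1. The PTPN14-1 library was the highest of each line. The LATS library, at 103, 139 and 155 in A704, HK2 and CAKI-1, stood close to it in A704 and CAKI-1. With PTPN14-2 the values were 99.3, 132 and 127. The difference of PTPN14-1 from control was 0.23 (SE 0.09, interval 0.05 to 0.42, limma adjusted p = 0.125), or 0.14 without the A704 control. PINK1-AS, which overlaps DDOST on the same strand and shares sequence with it, makes this level uncertain.

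RPN2 (ribophorin II, chr20:37178410-37241623), the member with the highest FPKM in every control library, lay on different sides of control by line. Its control and PTPN14-1 values were 141 and 189 in A704, 181 and 161 in HK2, and 203 and 160 in CAKI-1. The 3 lines gave an average of -0.03 (SE 0.12, interval -0.28 to 0.23, limma adjusted p = 0.917), the widest interval of the 9 partners. DAD1, a small subunit whose loss in hamster cells triggers cell death, averaged 0.08 (interval -0.12 to 0.28), from 119% of control in A704 and 110% in HK2 to 91.1% in CAKI-1. For neither gene can a change within the interval be told from none.

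OST4 and TMEM258, small subunits, stood below control with PTPN14-1 in every line, by far less than OSTC. OST4, a short membrane peptide that stabilises the complex, was at 91.1, 96.3 and 90.4% of control, and its difference was -0.11 (SE 0.10, interval -0.32 to 0.10, limma adjusted p = 0.536). TMEM258, a further subunit outside the 10 genes, stood at 97.3, 79.2 and 88.7% with a difference of -0.17 (SE 0.10, interval -0.39 to 0.05, adjusted p = 0.337). It was below control in 3 of 3 lines with each of the other siRNAs too, by -0.33 with PTPN14-2 (adjusted p = 0.133) and -0.22 with the LATS siRNA (adjusted p = 0.442). OST4 overlaps AGBL5, and TMEM258 overlaps MYRF and FEN1, on opposite strands, while STT3A overlaps CHEK1 on its own strand. The strand setting of the counting is not given in the sources used here, so reads of overlapping genes cannot be told apart.

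**Figure D2:**
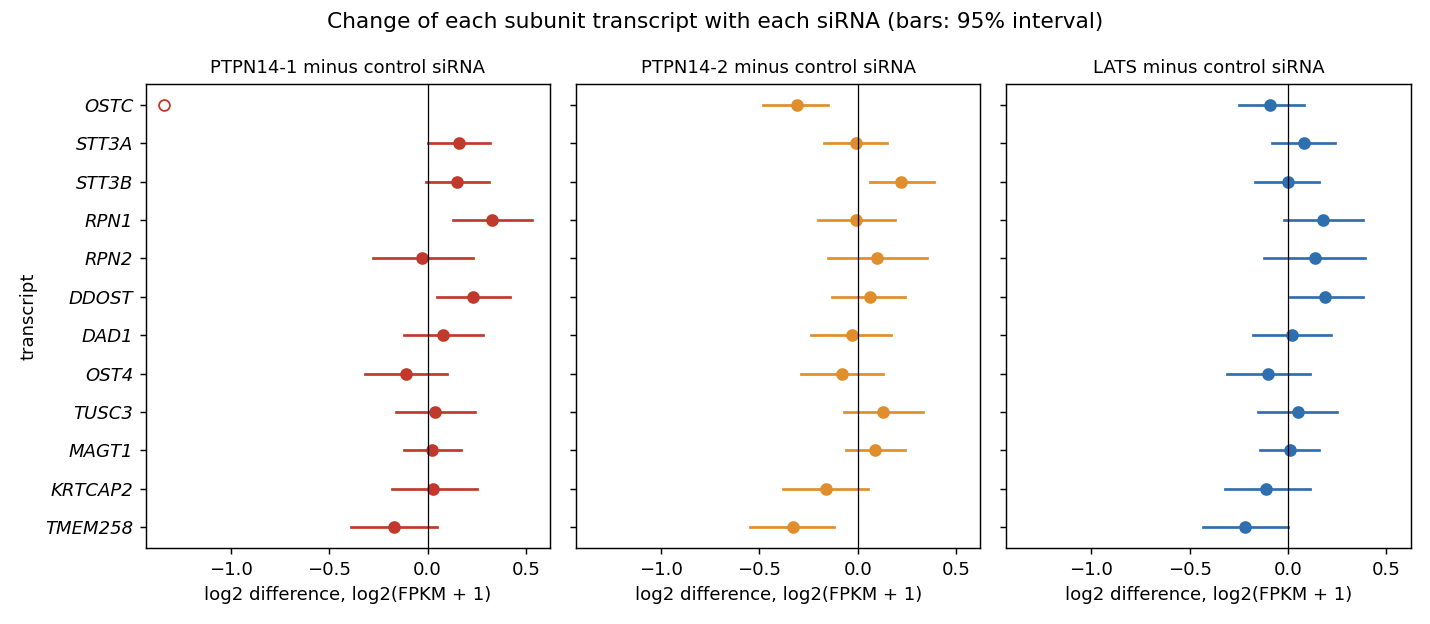
Log2 difference from the control siRNA on the log2(FPKM + 1) scale (horizontal axes) of each subunit transcript (vertical axis) for PTPN14-1, PTPN14-2 and the LATS siRNA; points are the estimates from 3 libraries against 3 and bars their 95% intervals. The open point is OSTC with PTPN14-1, at -1.34 and drawn with no interval because the gene was chosen on it; the partners with PTPN14-1 lie between -0.17 (TMEM258) and 0.33 (RPN1).

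Set against the other subunits of its own library, OSTC changed place. In the control libraries its log2 value minus the mean log2 value of the other 9 genes was 0.18, -0.03 and 0.84 (A704, HK2 and CAKI-1). With PTPN14-1 it was -1.33, -1.50 and -0.51. With PTPN14-2 it was -0.28, -0.47 and 0.64, and with the LATS siRNA -0.11, -0.09 and 0.74. By FPKM, which is per length, OSTC ranked 6th, 7th and 3rd of the 10 genes in the controls of A704, HK2 and CAKI-1, and 10th, 9th and 7th with PTPN14-1. The drop is of like size in lines that start from different levels. This too is a description, since it rests on the OSTC values that chose the set.

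**Figure D3:**
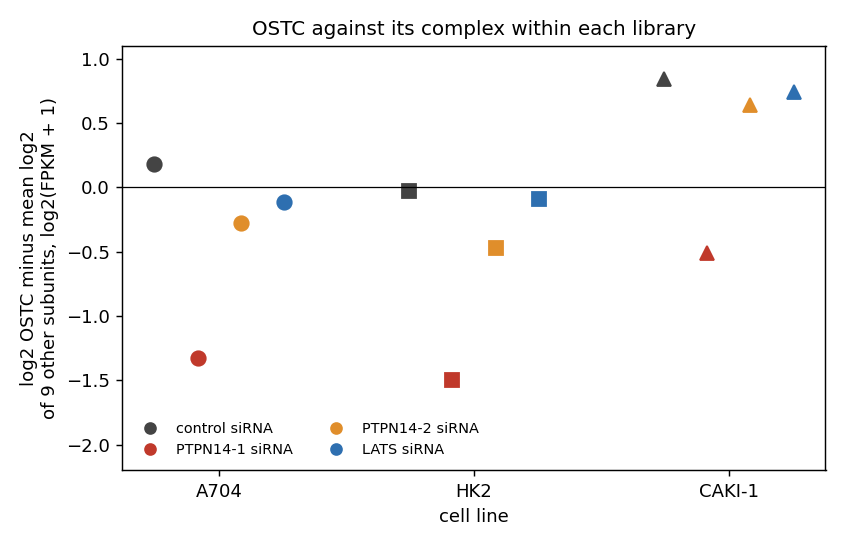
Log2(FPKM + 1) of OSTC minus the mean of the other 9 genes in the same library (vertical axis), by cell line (horizontal axis, marker shape) and siRNA (colour), 1 point per library; the line at 0 marks OSTC equal to that mean. PTPN14-1 gives the lowest point of each line (-1.33, -1.50 and -0.51), and PTPN14-2 the next lowest.

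One library per line served as control, and these did not stand alike within their lines for the partners. The A704 control was the lowest of its 4 libraries for 8 of the 10 genes, all but OSTC and OST4, against 19.9% of all genes tested. The HK2 control was the lowest for 4 of 10, against 20.9%, and the CAKI-1 control for 0 of 10, against 14%. The CAKI-1 control was the highest for 5 of 10, OSTC among them, against 15.2% of all genes tested. The part of this in the differences from control was not tested. Without the A704 control, the PTPN14-1 difference was 0.11 for STT3A, 0.12 for STT3B, 0.14 for DDOST and -0.20 for RPN2.

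The PTPN14 siRNAs were also compared with each other, which takes no control library. Limma called 1 of the 9 partners, RPN1, and 11.7% of all genes, while the OSTC value of -1.03 is a description. RPN1 was higher with PTPN14-1 than with PTPN14-2 by 0.33 (SE 0.09, interval 0.14 to 0.53, limma adjusted p = 0.0329), in 3 of 3 lines. That call ended without any one of the 6 PTPN14 libraries (adjusted p up to 0.163), and with quantile normalisation (0.0584) or no filter on low values (0.0681). STT3A was higher by 0.17 (adjusted p = 0.17) and DDOST by 0.18 (adjusted p = 0.197), while RPN2 was lower by -0.13 (adjusted p = 0.516). Over the 9 partners the median was -0.03, against 0.01 over all genes.

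With PTPN14-2 against control, limma called 0 of the 10 genes and 1.35% of all genes, and 2 of the 10, OSTC and STT3B, had an unadjusted p under 0.05, as did 15.0% of all genes. The partners ran from -0.08 for OST4 to 0.22 for STT3B, 5 above 0 and 4 below, where 49.2% of all genes lay above 0. With the LATS siRNA it again called 0 of the 10, and 0.122% of all genes, and 1 of the 10, DDOST, had an unadjusted p under 0.05, as did 11.2% of all genes. DDOST differed by 0.19 (SE 0.09, adjusted p = 0.436), RPN1 by 0.18 (SE 0.09, adjusted p = 0.482) and STT3B by -0.00. Both comparisons share the 3 control libraries with that of PTPN14-1, so values held in common are not separate evidence.

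The largest differences of the partners lay between cell lines, not between siRNAs. Over the 4 libraries of a line, STT3B in A704 averaged FPKM 37.6 ± 3.52 (SD, n = 4), less than in HK2 (87.6 ± 6.95) and CAKI-1 (86.5 ± 8.57). STT3A went the other way, with 54.4 ± 3.45 in A704 above the 46.4 ± 3.69 of HK2 and 42.5 ± 2.77 of CAKI-1. A704 was the line with more STT3A than STT3B, with a ratio of 1.27 to 1.54 in its 4 libraries. That ratio was 0.493 to 0.572 in HK2 and 0.396 to 0.555 in CAKI-1, so A704 did not overlap them. The 4 libraries of a line are that line under 4 siRNAs, and not independent cultures of a tissue.

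The oxidoreductases of the STT3B form differed by line as well. TUSC3 was highest in A704, at 53.6 ± 6.02, then CAKI-1, at 40 ± 3, and HK2, at 28.5 ± 0.738 (SD, n = 4), and the ranges of the 3 lines did not overlap. MAGT1, the alternative to TUSC3 in the complex, averaged 33.1 ± 1.92, 39.6 ± 0.497 and 36.1 ± 1.19 in the same order. Hence TUSC3 exceeded MAGT1 in A704, with a ratio of 1.45 to 1.72, lay near it in CAKI-1, at 0.927 to 1.08, and was below it in HK2, at 0.738 to 0.818.

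**Figure D4:**
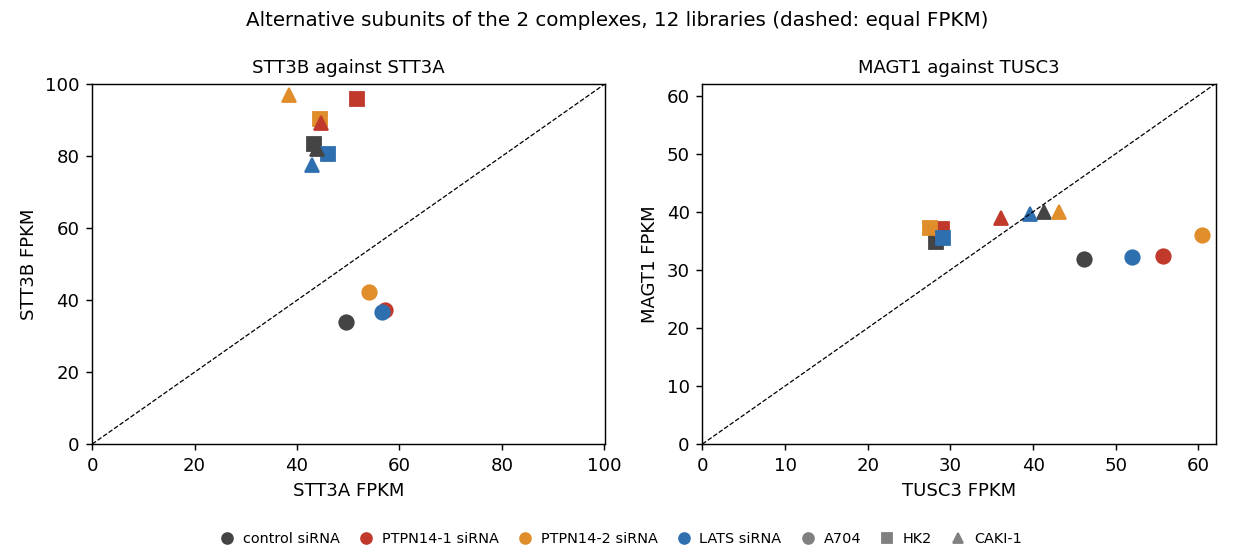
FPKM of STT3B against STT3A (left) and of MAGT1 against TUSC3 (right) in the 12 libraries, 1 point per library, with cell line as marker shape and siRNA as colour; the dashed line marks equal FPKM. The A704 points lie below the line in both panels (STT3A to STT3B ratio 1.27 to 1.54, TUSC3 to MAGT1 ratio 1.45 to 1.72), and the HK2 points above it in both.

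In the limma model with siRNA as a term, 7 of the 10 genes differed between A704 and HK2, where 84.6% of all genes did. STT3B was lower in A704 by -1.20 (SE 0.07, adjusted p = 8.85e-10), and DDOST (-0.50), RPN1 (-0.45), DAD1 (-0.45) and OST4 (-0.31) were lower too. TUSC3 was higher by 0.88 (SE 0.08, adjusted p = 1.80e-07) and STT3A by 0.22. Between A704 and CAKI-1, 9 of 10 differed against 81.1% of all genes, RPN2 being the exception at -0.05 (interval -0.27 to 0.17). A704 was lower in OSTC (-1.19), STT3B (-1.18), OST4 (-0.93), RPN1 (-0.66), DDOST (-0.58), DAD1 (-0.49) and MAGT1 (-0.25), and higher in TUSC3 (0.41) and STT3A (0.35). Each of these 16 calls also passed in all 12 fits without 1 library.

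Between CAKI-1 and HK2, 4 of 10 genes differed, against 81.7% of all genes. OSTC was higher in CAKI-1 by 1.11 (SE 0.07, adjusted p = 2.97e-09). OST4 (0.62), TUSC3 (0.48) and RPN1 (0.21) were higher as well. The RPN1 call ended without the HK2 LATS, HK2 PTPN14-1, CAKI-1 LATS or CAKI-1 control library (adjusted p up to 0.109), with no siRNA term (0.120) and with quantile normalisation (0.140), under which STT3A was called lower in CAKI-1 (-0.16, adjusted p = 0.0350). With no filter on low values MAGT1 was called higher (adjusted p = 0.0398). OSTC did not pass between A704 and HK2, at -0.09 (interval -0.23 to 0.06, adjusted p = 0.238). KRTCAP2 had the same order of lines as OSTC, with 120 ± 14.6 in CAKI-1 above 70.1 ± 4.32 in HK2 and 67.2 ± 7.62 in A704 (SD, n = 4).

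By level, RPN2 led the 10 genes in the lines taken as means, at 176 ± 23.5 in A704 and 183 ± 18.2 in HK2 (SD, n = 4), and stood beside RPN1 in CAKI-1, at 182 ± 17.3 and 184 ± 22.5. RPN1, DDOST and DAD1 followed in A704 and HK2, in that order. The lowest levels were those of MAGT1 and TUSC3 in HK2 and CAKI-1, and of MAGT1 and STT3B in A704. Neighbours in this order often overlapped: in HK2 the ranges of RPN2 (161 to 205) and RPN1 (149 to 176) did, as did those of DDOST (130 to 146) and DAD1 (115 to 133).

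The steps before and after the transferase were read through 4 gene lists. With PTPN14-1, 2 of their 84 genes rose and 4 fell (7.14% called), a share near that of all genes, of which 2.39% rose and 3.47% fell. Of 24 genes that build dolichol and the lipid-linked sugar chain, 0 rose and 1 fell. This was ALG10B, a glucosyltransferase that adds the last glucose, at -0.44 (SE 0.10, limma adjusted p = 0.0206), with FPKM of 62.8, 64.8 and 71.9% of control in A704, HK2 and CAKI-1. Its near copy ALG10 stood at -0.31 (SE 0.09, adjusted p = 0.0654), and the counting of reads between such copies is uncertain. The list's median was 0.02, against 0.00 over all genes. The ALG10B call ended without the A704 or HK2 PTPN14-1 library or any 1 control library (adjusted p up to 0.0958).

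Among 15 genes of sugar trimming, the calnexin cycle and cargo lectins, 1 rose and 1 fell, with a median of 0.10. CALR (calreticulin), a chaperone that binds trimmed sugar chains, fell by 0.61 on the log2 scale (SE 0.13, limma adjusted p = 0.0149). Its FPKM in control and PTPN14-1 libraries was 554 and 490 in A704, 727 and 409 in HK2, and 589 and 334 in CAKI-1. The fall was smallest in A704, at 88.5% of control beside 56.2 and 56.8%. EDEM2, which takes part in mannose trimming of misfolded glycoproteins, rose by 0.30 (SE 0.08, adjusted p = 0.0366), at 122, 127 and 126% of control. The CALR call ended without the HK2 or CAKI-1 PTPN14-1 or control library (adjusted p up to 0.0955), and that of EDEM2 without any control library or the HK2 or CAKI-1 PTPN14-1 library (up to 0.129). Both also ended with no filter on low values (0.0549 for CALR and 0.0567 for EDEM2).

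Of 28 measured genes of protein translocation, 1 rose and 1 fell, with a median of 0.09. TRAM1, a membrane protein beside the translocation channel, rose by 0.45 (SE 0.09, limma adjusted p = 0.0128), from FPKM 228 to 257 in A704, 70 to 101 in HK2 and 416 to 655 in CAKI-1. SRP68, a subunit of the signal recognition particle, fell by 0.30 on the log2 scale (SE 0.08, adjusted p = 0.0494), a call that 3 of 12 fits without 1 library kept (adjusted p up to 0.218 among the others) and that ended with no filter on low values (0.0844) or without the trend and robust options (0.0595). Of 17 chaperone and unfolded protein response genes, 0 rose and 1 fell, with a median of 0.04. That was DDIT3, a stress-induced transcription factor, at -0.56 (SE 0.11, adjusted p = 0.0136) and 90.6, 57.9 and 56.6% of control in A704, HK2 and CAKI-1. The calls of TRAM1 (adjusted p up to 0.0805) and DDIT3 (up to 0.0841) ended without the HK2 or CAKI-1 PTPN14-1 or control library, that of TRAM1 with quantile normalisation (0.0957), and that of DDIT3 with no filter on low values (0.0509).

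With PTPN14-2 and with the LATS siRNA, limma called 0 of these 84 genes, beside 1.35 and 0.122% of all genes. An unadjusted p under 0.05 was found for 10 of the 84 with PTPN14-2, against 15.0% of all genes, and for 13 with the LATS siRNA, against 11.2%. In the order of the lists above (24, 15, 28 and 17 genes) these numbered 1, 2, 3 and 4 with PTPN14-2, and 2, 6, 3 and 2 with the LATS siRNA. TRAM1 with PTPN14-2 was at 0.40 (SE 0.09, adjusted p = 0.0502). DDIT3 was at -0.40 with PTPN14-2 (adjusted p = 0.113) and -0.34 with the LATS siRNA (adjusted p = 0.308).

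Compared with PTPN14-2, PTPN14-1 gave 12 calls in these lists, which are named here after their values were seen; 5.52% of all genes were called higher and 6.18% lower. In dolichol and sugar chain assembly NUS1 (0.52), ALG9 (0.34) and ALG8 (0.30) were higher and ALG10 (-0.42), ALG10B (-0.39) and SRD5A3 (-0.31) lower. In trimming EDEM3 was higher (0.36) and CALR lower (-0.83, SE 0.13, limma adjusted p = 0.00152). In translocation SRPRB, the beta subunit of the signal recognition particle receptor, was higher (0.51, SE 0.09, adjusted p = 0.00276) and SRP68 lower (-0.37). ATF4 (0.32) and SDF2L1 (0.42), of the stress response, were higher. The calls of CALR and SRPRB passed in all 12 fits without 1 library, and each of the other 10 ended in at least 1 such fit.

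Likeness to OSTC was measured as Pearson's r of log2(FPKM + 1) centred within each line, over 12 libraries that share lines and siRNAs, and is given without a test. No subunit stood near OSTC on this scale: RPN2 was the most like, at r = 0.32, then OST4 at 0.28 and TMEM258 at 0.16. RPN1 was the most unlike at -0.68, then STT3A at -0.63 and DDOST at -0.53. By contrast 118 genes had r above 0.9 and 43 had r below -0.9. The 5 most like were GALK2 (0.98), a sugar kinase, WDR11 (0.98), RNPS1 (0.97), an RNA-binding protein of splicing, LPGAT1 (0.97), a lipid acyltransferase, and DUT (0.97), which breaks down dUTP. Their differences with PTPN14-1 were -0.54, -0.20, -1.02, -1.04 and -0.81 in that order. With PTPN14-2 they were -0.13, -0.06, -0.22, -0.14 and -0.13. The 5 most unlike were PLAA (-0.97), NEDD4, RBM7, AEN and CXorf38 (each -0.96), with differences of 0.30 to 0.42 with PTPN14-1. All of these r share the 3 PTPN14-1 libraries, the lowest of their lines for OSTC.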

How the data were processed

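What the authors deposited is a single table of expression, read here as FPKM (fragments per kilobase of gene and per sequencing depth) from its values, since no header names the unit. The kit marks strand, per the labels' protocols. STAR 2.4.0g1 was the aligner and GRCh38.p1 the build, per the submitters' processing notes. For the counter, its annotation and its strand setting, the sources used here give nothing. Sums ran from 344334 to 396360. Depth was estimated from whole-read steps of low values, which puts OSTC at about 340 to 2632 reads at its shortest annotated length, 663 bases. These read counts share the limits of the depth estimate.

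The deposited values were turned into log2(FPKM + 1), which understates changes of low genes, for the 12276 genes with FPKM over 1 in 3 or more libraries. R 4.3.3 and limma 3.58.1 fitted 1 linear model of siRNA (4) and cell line (3) with 6 residual degrees of freedom, using limma's trend and robust options (statmod 1.5.0). P-values were adjusted by Benjamini-Hochberg over all of these genes, and a gene is called at an adjusted p under 0.05. Cell line is a block because libraries of 1 line pair across siRNAs; principal components 1 and 2 (57.0 and 38.1% of variance) separated the lines. The fit was tested on simulated data with 200 changed genes per set. It recovered 24.2, 22.1 and 26.5% of 1.25-fold changes with PTPN14-1, PTPN14-2 and the LATS siRNA. At 1.5-fold it recovered 78.6, 77.9 and 78.0%, and at 2-fold 97.0, 97.2 and 97.6%, so changes as small as 1.25-fold were mostly missed. The data gave 720, 166 and 15 calls with these siRNAs, unlike the 200 changed genes set for each. Recovery in the data may therefore differ from these shares, and with the LATS siRNA may be lower. Positions, copies and shared stretches came from GENCODE 29.

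The members and gene lists were chosen with earlier results of these data known. Named genes are the 10 members, KRTCAP2, TMEM258, the siRNA targets, the 4 genes of each list with the smallest p with PTPN14-1 and 2 with each other siRNA, and the 5 genes most like and most unlike OSTC; of these, examples are given. Alternatives were a pseudocount of 0.1, no filter, quantile normalisation, no trend or robust step, no cell line or siRNA term, each library left out and, chosen after seeing the data, each line left out.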

Additional observations from a re-analysis of the deposited data

Results flagged for a closer look

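The 10 members, KRTCAP2 and TMEM258 were searched for opposite signs between lines. In 4 of these genes both PTPN14 libraries of one line lay on one side of that line's control and both of another line on the other side. The rule sets no least size, and the share of all genes that meet it was not counted. The values are the mean log2 differences of the 2 PTPN14 libraries from control, and the difference between lines was not tested. RPN2 was at 0.42 in A704 and -0.24 in CAKI-1. DAD1 was at 0.24 in A704 and -0.21 in CAKI-1. MAGT1 was at 0.10 in A704 and 0.09 in HK2, but -0.02 in CAKI-1. KRTCAP2 was at 0.06 in HK2 and -0.25 in CAKI-1. Each rests on 1 control library per line, of which the A704 control was the lowest of its line for RPN2, DAD1 and MAGT1 and the CAKI-1 control the highest of its line for the same 3 genes. For KRTCAP2 the CAKI-1 control was the highest of its line and the HK2 control the lowest. The part of those libraries was not tested.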

How the results depend on the processing

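Among the named genes, no called difference reversed its direction. The direction of the other called genes was not followed. Leaving out 1 library at a time, the genes called against control numbered 202 to 833 with PTPN14-1 (720 with all), 34 to 254 with PTPN14-2 (166) and 3 to 20 with the LATS siRNA (15), and 744 to 1643 between the PTPN14 siRNAs (1437). Of the members, 1 to 2 were past the threshold there, of which 1 is always OSTC, chosen on these values and no test, and the other RPN1. Without A704, HK2 or CAKI-1, these counts were 379, 66 and 195, then 94, 24 and 16, then 4, 1 and 2, and 709, 428 and 548, with RPN1 lost between the PTPN14 siRNAs each time (1 member, OSTC, remaining). With no filter on low values they were 355, 60 and 3 against control. RPN1 was lost between the PTPN14 siRNAs with no filter and with quantile normalisation, which also called 1 member, OSTC, with PTPN14-2. Without the cell line block, which pairs libraries of the same line, 0 genes were called in any siRNA comparison, so 0 members with PTPN14-1 or between the PTPN14 siRNAs. The cause of these shifts was not tested. Of the values of named genes under these settings, 2920 kept direction and side of the threshold. Another 201 fell short of it, 20 newly passed and 91 changed sign without a call. The OSTC values with PTPN14-1 carry no test, and are among the 2920 for keeping their direction and near their size. With 1 library per line and siRNA, changes within a line have no replicate.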
